A study of Homo sapiens with 6 samples.

Results

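The genes described are 50 interferon-stimulated effector genes, a listed set of the proteins that carry out the antiviral state, measured in the THP1 cell line. The list leaves out the nucleic acid sensors, the OAS enzymes and the STAT and IRF factors, which are read as separate lists below. The separation is not strict, since the member ZNFX1 is a helicase that also senses viral RNA. Members were taken by symbol. The rule holds no measured value, but the list was chosen with earlier results of these data known. All 50 were found, all 50 were among the 14497 genes tested, and all 50 were above 1 CPM (the count scaled to library size with TMM) in every library. THP1 is an established human monocytic line from an acute myeloid leukaemia. The 6 libraries of polyadenylated RNA form 3 groups of 2, each with replicate numbers 1 and 2 in its titles. The first group, shCtrl, carries a control hairpin and is labelled wild-type. The second, shALKBH5, is labelled as an ALKBH5 knock-down, and the third, ALKBH5 rescue, as the knock-down with ALKBH5 put back. ALKBH5 is an enzyme that removes the N6-methyladenosine mark from RNA. No interferon or other stimulus is named in the labels, no hairpin sequence or clone is given, and all 6 libraries come from the same line.

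Type I interferons bind a receptor on the cell surface and, through the kinases JAK1 and TYK2, activate transcription factors of the STAT family. With IRF9 these form a complex that enters the nucleus and binds a short DNA element, the interferon-stimulated response element (ISRE), in front of its target genes. The proteins made from those genes block virus entry, bind or degrade viral RNA, attach the ubiquitin-like protein ISG15 to other proteins, or restrict replication in other ways. Myeloid cells can keep a low level of this programme without infection.

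The element is shown here because it is what many of the members share in their DNA. The members were taken by symbol and not by this element. They were listed as interferon targets, however, so a high share with the element is not an independent finding. In the RefSeq promoter windows of GRCh38.p14, 250 bases before to 50 bases after a transcription start, 57 entries covered 42 of the 50 members. The search used the core GAAANNGAAA on either strand. At least 1 core lay in the windows of 31 of the 42 members (73.8%), against 4.38% of all 27305 genes with a window (3.57% of the 35116 windows), and 15 members had 2 or more. The first 5 sites below belong to the members with a core and the largest differences between the replicate numbers, and the last 5 to those with the lowest values. Each is printed 5′ to 3′ along the gene, with the repeated 4 bases of the core in capitals.
IFIT3: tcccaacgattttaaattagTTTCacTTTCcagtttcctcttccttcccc
IFIT1: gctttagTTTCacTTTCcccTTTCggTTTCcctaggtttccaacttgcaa
IFIT5: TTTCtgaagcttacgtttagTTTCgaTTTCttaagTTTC
SAMD9: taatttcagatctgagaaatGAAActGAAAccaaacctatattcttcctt
IFI44: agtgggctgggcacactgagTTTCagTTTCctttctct
IFI6: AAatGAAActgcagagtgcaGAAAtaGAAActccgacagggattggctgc
IFITM1: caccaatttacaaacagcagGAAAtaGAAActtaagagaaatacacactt
LGALS3BP: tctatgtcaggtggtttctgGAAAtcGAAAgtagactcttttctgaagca
LAP3: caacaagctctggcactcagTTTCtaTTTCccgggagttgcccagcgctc
IFI27: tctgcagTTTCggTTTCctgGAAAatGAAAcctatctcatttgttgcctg
Capitals at the left edge of the IFIT5 and IFI6 sequences are the ends of further cores that begin before the stretch shown, and those at the right edge of IFIT5 are the start of a core that runs past it. The IFIT3, IFIT1 and IFIT5 stretches lie at chr10:89327855-89327904, chr10:89392500-89392549 and chr10:89414529-89414567 on the plus strand. In these the last core that lies wholly before the start begins 122, 103 and 19 bases before it. The SAMD9 stretch is chr7:93118086-93118135 on the minus strand and that of IFI44 is chr1:78649751-78649788 on the plus strand. Of the other 5, IFI6 (chr1:27672256-27672305) and LGALS3BP (chr17:78979952-78980001) are on the minus strand, and IFITM1 (chr11:313980-314029), LAP3 (chr4:17576995-17577044) and IFI27 (chr14:94110621-94110670) on the plus strand. A match is a string of letters and says nothing of binding. IFITM2, TRIM22, IFIT2, LY6E, USP18, GBP2, ZNFX1 and MX2 had no entry.

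ALKBH5 itself did not follow the group labels. In the order shCtrl, shALKBH5 and ALKBH5 rescue, which all values below keep, it stood at 14.6, 12.4 and 13.6 CPM in the libraries numbered 1 and 1097, 1003 and 968 CPM in those numbered 2. The estimated counts behind these values ran from 202 to 312 and from 15733 to 20608. ALKBH5 was therefore low in the library of each group that is numbered 1 and high in the one numbered 2, and group names below stand for the libraries so labelled. The correlation of the deviations from the group means over all genes was 0.60 to 0.73 between same-numbered libraries. The labels state no day, batch or treatment that a number stands for, and nothing says that replicates were separate cultures, so the spread behind the p-values may be technical only. Totals were 14534386 to 24857373 estimated counts per library.

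Most of the 50 members were higher in the 3 libraries numbered 2 than in the 3 numbered 1. The list was chosen with earlier results known, so this describes a pattern already seen and is not an independent finding. Across the groups, 36 passed the test as higher, 2 as lower and 12 did not pass, in edgeR's quasi-likelihood test with group and replicate number as terms and Benjamini-Hochberg adjustment over 14497 genes. The background was wide: 22.8% of all genes were called higher and 22.6% lower. The members' median log2 fold change was 0.84, against 0.01 for all genes, and 46 of 50 members (92%) had a positive value, against 51.2% of genes. For 40 members all 3 libraries numbered 2 lay above all 3 numbered 1, against 28.6% of genes. The summed level per length was 3408 to 3414 TPM (a count scaled by transcript length and library) in the libraries numbered 1 and 4724 to 4912 TPM in those numbered 2, so the groups of libraries did not overlap. ALKBH5 and 6585 of the tested genes (45.4%) moved with the same split, and their part in the members' difference was not tested. In bulk RNA, fewer cells with a transcript and less of it per cell cannot be told apart.

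**Figure D1:**
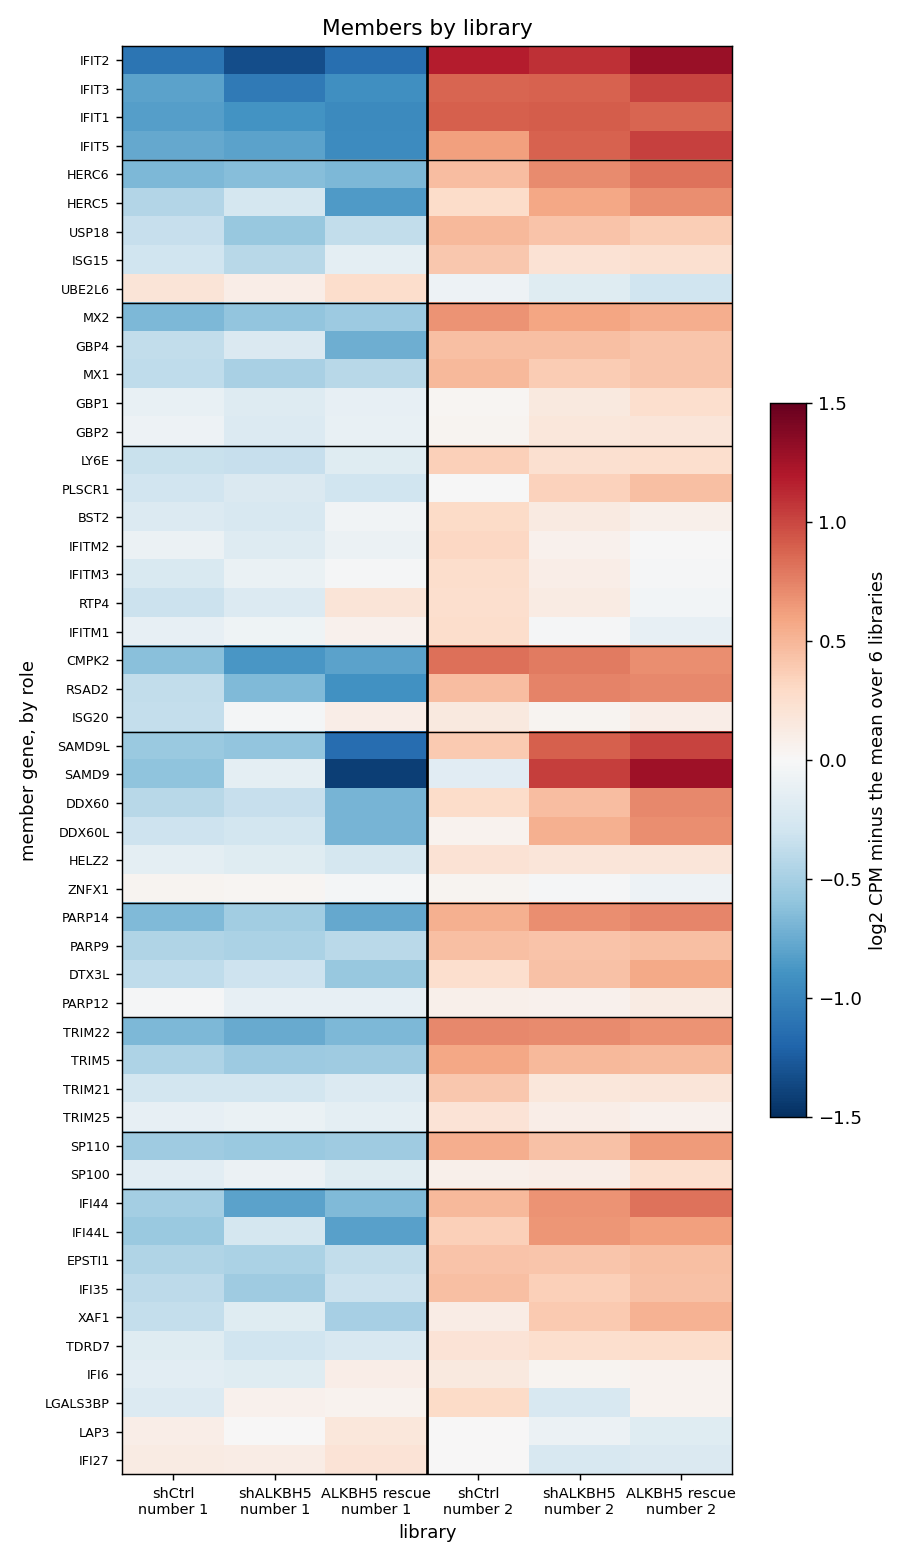
Each row is a member gene and each column a library; colour gives log2 CPM minus that gene's mean over the 6 libraries, on a scale from -1.5 to 1.5. Black lines separate the 10 roles and the replicate numbers. The 4 IFIT genes at the top are lower in all 3 libraries numbered 1 than in all 3 numbered 2. UBE2L6 and IFI27, the members called lower, run the other way.

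The 4 IFIT genes, whose proteins bind viral RNA that lacks the cap marks of host messages, showed the largest differences of any role (median log2 fold change 1.82), and all 4 were higher. IFIT2 was at 12.9, 10.9 and 12.6 CPM in the libraries numbered 1 and 61.9, 58.5 and 67.2 CPM in those numbered 2 (log2 fold change 2.37, SE 0.11, adjusted p = 2.4e-06). IFIT3 was at 26.8, 22.4 and 24.7 CPM against 85.6, 86.1 and 94.2 CPM (log2 fold change 1.85, SE 0.10, adjusted p = 4.1e-06), and IFIT1 at 15.9, 15.1 and 14.5 CPM against 52.5, 52.6 and 51.4 CPM (log2 fold change 1.78, SE 0.10, adjusted p = 5.9e-06). IFIT5, the least abundant of the 4, was at 5.86, 5.71 and 5.17 CPM against 15.3, 18.4 and 20.3 CPM (log2 fold change 1.69). In all 4 genes the gap between the numbers was larger than the spread within either. The leading IFIT2 transcript held 52.7% of the gene's counts in number 1 and 73.2% in number 2. The IFIT genes lie together on chromosome 10.

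Among the 5 genes of the ISG15 system, 4 were higher and 1 was lower. HERC5, the main human ligase that attaches ISG15, was at 14.3, 16.2 and 10.7 CPM in the libraries numbered 1 and 23.4, 29.1 and 31.4 CPM in those numbered 2 (log2 fold change 1.04, SE 0.16, adjusted p = 0.00083). HERC6, a related HECT protein, was at 9.55, 9.77 and 9.51 CPM against 20.96, 24.8 and 26.6 CPM (log2 fold change 1.33, SE 0.12, adjusted p = 5.3e-05). The HERC6 transcript with the most counts over all libraries held 33.7% of them in number 1, where another led, and 67.6% in number 2. USP18, which removes ISG15 and also restrains the interferon receptor, was at 23.7, 20.4 and 23.5 CPM against 42.5, 40.7 and 38.9 CPM (log2 fold change 0.85). ISG15 itself was at 60.9, 56.3 and 67.6 CPM against 99.3, 87.4 and 88.4 CPM, a smaller difference (log2 fold change 0.57, SE 0.09, adjusted p = 0.001) with no overlap. The conjugating enzyme UBE2L6 fell, at 77.4, 72.3 and 80.7 CPM against 64.1, 59.6 and 54.7 CPM (log2 fold change -0.37, SE 0.09, adjusted p = 0.01). It did not pass when either shALKBH5 library was left out, and both of these fits rest on the same shCtrl and rescue libraries. Of the USP18 leading transcript, 30.8% of 31-base words also occur in other genes (28.8% in USP41), so its counts are uncertain.

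The MX proteins are dynamin-like GTPases that trap viral components, and the guanylate-binding proteins (GBP) are GTPases that coat pathogens and their compartments. MX2 was at 54.1, 57.01 and 58.7 CPM in the libraries numbered 1 and 137, 130.1 and 125 CPM in those numbered 2 (log2 fold change 1.21, SE 0.09, adjusted p = 1.6e-05), and MX1 at 108, 100.2 and 105 CPM against 197, 183 and 187 CPM (log2 fold change 0.86, SE 0.08, adjusted p = 4.6e-05). GBP4 was also called (13.5, 14.9 and 10.5 CPM against 23.7, 23.8 and 23.1 CPM, log2 fold change 0.87). GBP1 (0.29) and GBP2 (0.26) did not pass, although in both genes all 3 libraries numbered 2 were above the others. GBP1 shares 25.7% of the words of its leading transcript with other genes (17.5% with the pseudogene GBP1P1).

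The 7 membrane and entry factors had the smallest median of the roles, 0.24, and 3 were called higher. LY6E, a lipid-anchored surface protein that blocks fusion of coronaviruses, was at 71.3, 70.4 and 79.3 CPM in the libraries numbered 1 and 115, 106 and 107 CPM in those numbered 2 (log2 fold change 0.57, SE 0.09, adjusted p = 0.0007). BST2 (tetherin), which holds budding virions on the cell, was at 219, 214 and 244 CPM against 308, 276 and 265 CPM (log2 fold change 0.33, SE 0.09, adjusted p = 0.016). The scramblase PLSCR1 was at 58.7, 61.9 and 58.7 CPM against 71.9, 91.4 and 98.6 CPM (log2 fold change 0.54), and its leading transcript is annotated as a retained intron. IFITM3, which stops virus fusion in endosomes and had the second highest level per length of the members, was at 171, 187 and 198 CPM against 239.9, 215 and 198 CPM and did not pass (log2 fold change 0.23, adjusted p = 0.084). In IFITM3 the rescue libraries of both numbers were nearly equal. IFITM2 (0.24), RTP4 (0.21) and IFITM1 (0.09) did not pass either. The 3 IFITM genes share 25.6% to 43.3% of the words of their leading transcripts with other genes, so the split of reads among them is uncertain.

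Of the 3 enzymes of nucleotides and RNA, CMPK2 and RSAD2 were higher. CMPK2, a mitochondrial nucleotide kinase, was at 35.8, 30.1 and 31.6 CPM in the libraries numbered 1 and 97.4, 94.3 and 89.4 CPM in those numbered 2 (log2 fold change 1.53, SE 0.09, adjusted p = 6.9e-06). Its neighbour RSAD2 (viperin), which makes a chain-terminating nucleotide, was at 12.4, 10.1 and 8.51 CPM against 21.98, 26.8 and 26.2 CPM (log2 fold change 1.29, SE 0.16, adjusted p = 0.00022). The exonuclease ISG20 was at 8.46, 10.6 and 11.6 CPM against 11.97, 11.1 and 11.6 CPM and did not pass (log2 fold change 0.18, SE 0.14, adjusted p = 0.34), with the shCtrl library numbered 1 the lowest.

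SAMD9 and SAMD9L, paralogous restriction factors of poxviruses, were both called higher, SAMD9 with the largest standard error of the set. SAMD9L was at 42.02, 40.9 and 27.8 CPM in the libraries numbered 1 and 81.04, 114 and 124 CPM in those numbered 2 (log2 fold change 1.53, SE 0.18, adjusted p = 0.0002). SAMD9 was at 15.4, 21.1 and 8.77 CPM against 20.8, 48.03 and 56.5 CPM (log2 fold change 1.44, SE 0.32, adjusted p = 0.0058), and the shCtrl library numbered 2 fell below the shALKBH5 library numbered 1, so the numbers overlapped. The helicases DDX60 (25.2, 26.4 and 20.6 CPM against 40.4, 46.1 and 55.4 CPM) and DDX60L (119, 122 and 91.04 CPM against 153, 213 and 239.6 CPM) had log2 fold changes of 0.97 and 0.85. HELZ2, a helicase co-activator, was higher by a smaller amount (0.39), and ZNFX1, a helicase that senses viral RNA, did not pass (134, 133 and 127 CPM against 134, 129 and 124 CPM, log2 fold change -0.03, 95% interval -0.20 to 0.15).

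PARP9 and DTX3L act as one complex in ADP-ribosylation and ubiquitination. They were at 64.6, 63.5 and 66.5 CPM against 120.0, 119 and 121 CPM and at 73.6, 77.6 and 64.8 CPM against 115, 130.3 and 143 CPM, with log2 fold changes of 0.89 and 0.84. PARP14, a large ADP-ribosyltransferase of macrophages, was at 97.7, 108 and 90.7 CPM in the libraries numbered 1 and 224, 252 and 257 CPM in those numbered 2 (log2 fold change 1.31, SE 0.09, adjusted p = 1.3e-05). All 3 were called, while PARP12 (0.18) was not. The leading PARP12 transcript is annotated as a retained intron. Only 7.9% of the gene's counts in number 1 and 7.1% in number 2 fell on protein-coding transcripts. All 4 TRIM ligases were higher. TRIM22 was at 39.3, 37.2 and 39.4 CPM against 103, 103 and 99.7 CPM (log2 fold change 1.40, SE 0.09, adjusted p = 8.4e-06), and TRIM5, which recognises retroviral capsids, at 12.4, 11.7 and 11.8 CPM against 25.6, 24.1 and 23.9 CPM (log2 fold change 1.03, SE 0.11, adjusted p = 0.00012). The antibody receptor TRIM21 (0.50) and TRIM25 (0.25), a ligase of the RIG-I route, changed less. The nuclear body proteins SP110 (31.7, 31.4 and 31.7 CPM against 66.9, 62.4 and 71.3 CPM, log2 fold change 1.08) and SP100 (0.29) were both called.

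The last 10 members have other or less settled roles, and 6 of them were higher. IFI44 was at 18.2, 14.97 and 16.5 CPM in the libraries numbered 1 and 36.6, 41.4 and 45.9 CPM in those numbered 2 (log2 fold change 1.32, SE 0.13, adjusted p = 6e-05), and its paralogue IFI44L at 16.4, 20.1 and 13.7 CPM against 31.1, 38.5 and 37.2 CPM (log2 fold change 1.10, SE 0.13, adjusted p = 0.00019). The leading IFI44 transcript differed between the numbers, and protein-coding transcripts held 43.0% of the IFI44 counts in number 1 and 50.6% in number 2. EPSTI1 (0.86), IFI35 (0.83), the pro-apoptotic XAF1 (0.69) and TDRD7 (0.48) were also called. XAF1 shares 69.8% of the words of its leading transcript with the gene PRAL, so its counts are uncertain. IFI6, a small membrane protein, had the highest level per length of all members, 638 TPM on average, and did not pass (281, 278 and 336 CPM against 347, 322 and 325 CPM, log2 fold change 0.15). The secreted glycoprotein LGALS3BP (0.05) and the aminopeptidase LAP3 (-0.18) did not pass. IFI27 fell, at 41.1, 40.8 and 43.7 CPM against 38.05, 32.1 and 32.7 CPM (log2 fold change -0.29, SE 0.11, adjusted p = 0.045), and lost its call in several other settings. Set against the promoter windows, 21 of the 31 members with an ISRE core and 10 of the 11 with an entry and no core were called higher, with median log2 fold changes of 0.85 and 0.69.

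**Figure D2:**
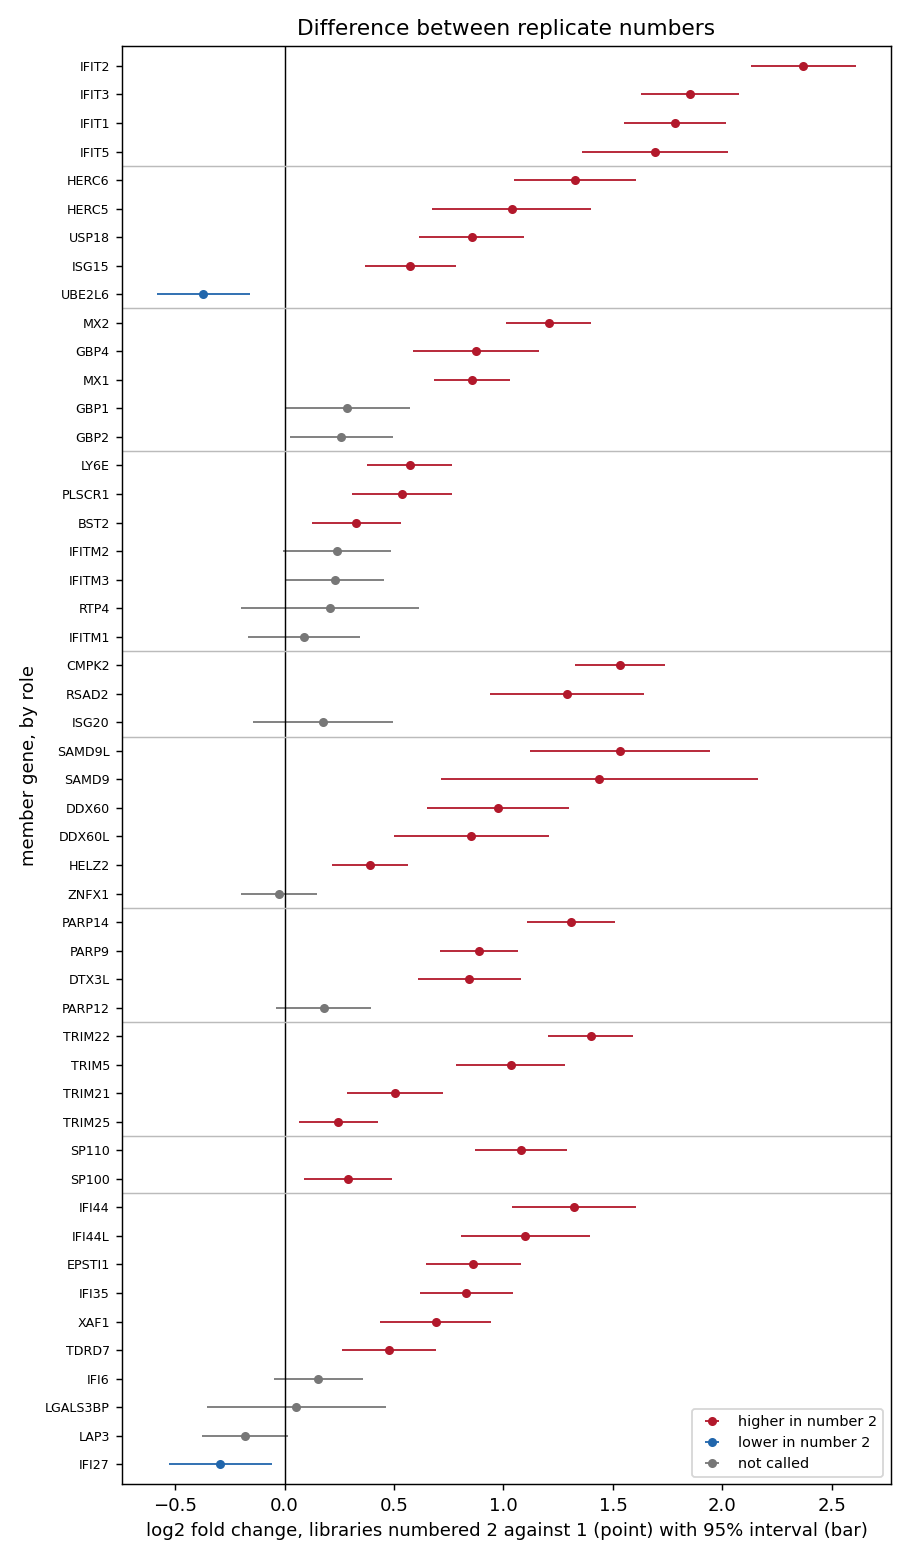
Points are log2 fold changes of the 50 members between the 3 libraries numbered 2 and the 3 numbered 1, bars are 95% intervals of the edgeR fit, and grey lines separate the 10 roles. The 4 IFIT genes sit between 1.69 and 2.37 and the 7 membrane and entry factors between 0.09 and 0.57. UBE2L6 and IFI27, both called lower, lie below 0, as do LAP3 (-0.18) and ZNFX1 (-0.03), which were not called.

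The members' median was positive in each group taken alone. The median log2 difference between numbers 2 and 1 was 0.68 in shCtrl, 0.71 in shALKBH5 and 0.78 in ALKBH5 rescue, with 47, 45 and 41 members positive. These are differences of 1 library against 1 and have no replicate check. The medians over all genes were 0.0031, -0.00017 and 0.022.

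The design's own comparisons ask whether the members change when ALKBH5 is knocked down and return when it is restored. No member was called in any of the 3 comparisons, beside 0% of all genes in each (edgeR with group as the only term). At an unadjusted p under 0.05 there were 0 members in each. Of the 14497 tested genes there were 38, 43 and 46 for shALKBH5 against shCtrl, ALKBH5 rescue against shALKBH5 and ALKBH5 rescue against shCtrl. This fit leaves the difference between the numbers in its spread (biological coefficient of variation 27.7%, against 10.6% with the number as a term). Members that differ strongly by number could hardly pass in it, so nothing is concluded from these counts of 0. DESeq2 and limma-voom called 0 members too. The members' median log2 fold changes were -0.03, 0.04 and 0.01, and those of all genes were -0.03, 0.01 and -0.01. With the replicate number as a block, 0 members were called in each comparison, against 0.0069%, 0% and 0.0069% of genes. The block's 95% intervals lay within 1 log2 unit of 0, that is within a 2-fold change, for 49 of 50 members in each comparison, the exception being SAMD9. They lay within 0.5 of 0 for 40, 41 and 38 members. These comparisons share libraries and are not independent of one another. ALKBH5 itself was not called in shALKBH5 against shCtrl (block log2 fold change -0.17, SE 0.11, adjusted p = 0.98 in edgeR), so they compare libraries as labelled.

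Single members came nearest to a group difference in the fit with the block. For shALKBH5 against shCtrl, SAMD9 had a log2 fold change of 0.81 (SE 0.39, unadjusted p = 0.065, adjusted p = 0.98). Of the SAMD9 values given above, the shALKBH5 library exceeded the shCtrl library within both numbers. In ALKBH5 rescue it was the lowest of its number in number 1 and the highest in number 2. When the rescue library of either number was left out of the fit with the block, SAMD9 was the 1 member called in shALKBH5 against shCtrl (log2 fold changes of 0.88 and 0.87), where 2.52% and 2.37% of all genes were called higher. Both fits rest on the same shCtrl and shALKBH5 libraries, so they are not separate results. Without the rescue library numbered 2, HERC5, SAMD9, SAMD9L, DDX60L and IFI44L were called lower in rescue than in shALKBH5 (-1.46 to -0.55), beside 5.82% of all genes. Without the rescue library numbered 1, rescue was again 1 library. The members picked out were PLSCR1, SAMD9, SAMD9L, DDX60L and XAF1, higher in rescue than in shCtrl (0.39 to 1.25). In that fit 4.48% of all genes were called higher. These few members are not read as a result about the list.

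Within the numbers, the difference of rescue from shCtrl went with transcript length. The 25 members with longer transcripts (2487 to 7767 bases, as a count-weighted mean) had a median difference of rescue from shCtrl of -0.12 in number 1, with 3 of 25 positive. In number 2 it was 0.20, with 18 positive. For the 25 shorter members (596 to 2483 bases) the medians were 0.07, with 16 positive, and -0.12, with 6 positive. Over all tested genes split at the same length, the medians were -0.05 and -0.01 for longer genes and 0.07 and -0.11 for shorter ones, so the shorter members lay near the values of other genes of their length. Across the 50 members the correlation of this difference with the log2 of transcript length was -0.60 in number 1 and 0.53 in number 2, and across all tested genes it was -0.19 and 0.13. These are descriptions over genes of the same libraries, which are not independent replicates, and carry no test. The difference between the numbers was also larger in the longer members. Of the longer 23 and of the shorter 13 were called higher, with medians of 0.97 and 0.29. Over all genes 22.8% were called higher, and the share by length was not computed. In shCtrl alone the members' medians were 0.82 and 0.49, against 0.02 and -0.02 for all longer and shorter genes. In ALKBH5 rescue alone they were 1.14 and 0.29, against 0.14 and -0.13. The part of length in these values was not tested.

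**Figure D3:**
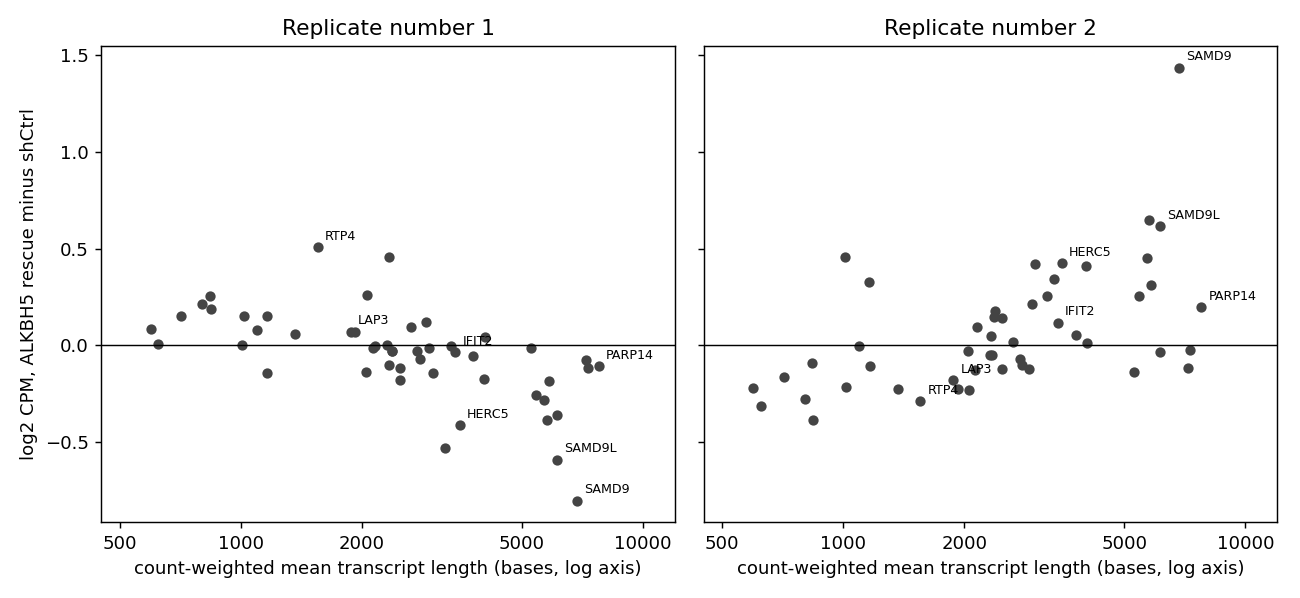
Each point is a member; the x axis is its count-weighted mean transcript length in bases on a log axis, and the y axis is log2 CPM in ALKBH5 rescue minus that in shCtrl, within replicate number 1 (left) and 2 (right), each 1 library against 1. The longest members lie mostly below 0 on the left, down to -0.80 for SAMD9, and SAMD9, SAMD9L and HERC5 lie above 0 on the right, up to 1.44.

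Other genes of the pathway were read from 7 further lists, beside 22.8% of all genes called higher and 22.6% called lower between the numbers. Of 21 interferon genes none passed the filter on low counts, 18 were at 0 in all libraries, and their summed level was at most 0.31 CPM. Among 8 tested receptor subunits and kinases 1 was called higher between the numbers, JAK2 (19.5, 26.6 and 16.3 CPM against 23.04, 38.8 and 41.3 CPM, log2 fold change 0.72), and the interferon receptor genes IFNAR1 (0.01) and IFNAR2 (-0.01) were not called. Of 10 tested STAT and IRF factors 5 were higher and 2 lower. STAT2 was at 121, 122 and 117 CPM in the libraries numbered 1 and 239, 221 and 206 CPM in those numbered 2 (log2 fold change 0.89, SE 0.08, adjusted p = 4.6e-05), and IRF7 had a log2 fold change of 0.80. IRF8, a factor of monocyte identity, fell (539, 544 and 575 CPM against 389.8, 362 and 371 CPM, log2 fold change -0.56). Among the negative regulators 1 of 7 was higher, PIAS1 (0.43), and 5 were lower, including CISH (51.2, 53.8 and 56.9 CPM against 25.9, 24.5 and 24.2 CPM, log2 fold change -1.12), SOCS3 (-0.44) and PTPN1 (-0.36).

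Downstream and parallel genes divided by list. Of 15 tested sensors and OAS enzymes 12 were higher and 0 lower (median 0.80), beside 22.8% and 22.6% of all genes. OAS3, which makes the second messenger of RNase L, was at 122, 127 and 109.5 CPM in the libraries numbered 1 and 573, 522 and 529 CPM in those numbered 2 (log2 fold change 2.18, SE 0.09, adjusted p = 1.4e-06). OAS1 (1.62), OAS2 (0.96) and DHX58 (1.01) were also higher. Of 7 tested interferon-induced chemokines and cytokines 5 were higher, among them CXCL10 at 4.48, 4.80 and 3.78 CPM against 19.95, 22.6 and 22.3 CPM (log2 fold change 2.32, SE 0.14, adjusted p = 7e-06), CCL8 (1.31) and CCL2 (0.83). The immunoproteasome and peptide transport list had 1 higher (B2M, 0.29) and 1 lower (NLRC5, -0.46) of 10, with a median of -0.05. No gene of any of these lists was called in the 3 group comparisons, with or without the block.

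**Figure D4:**
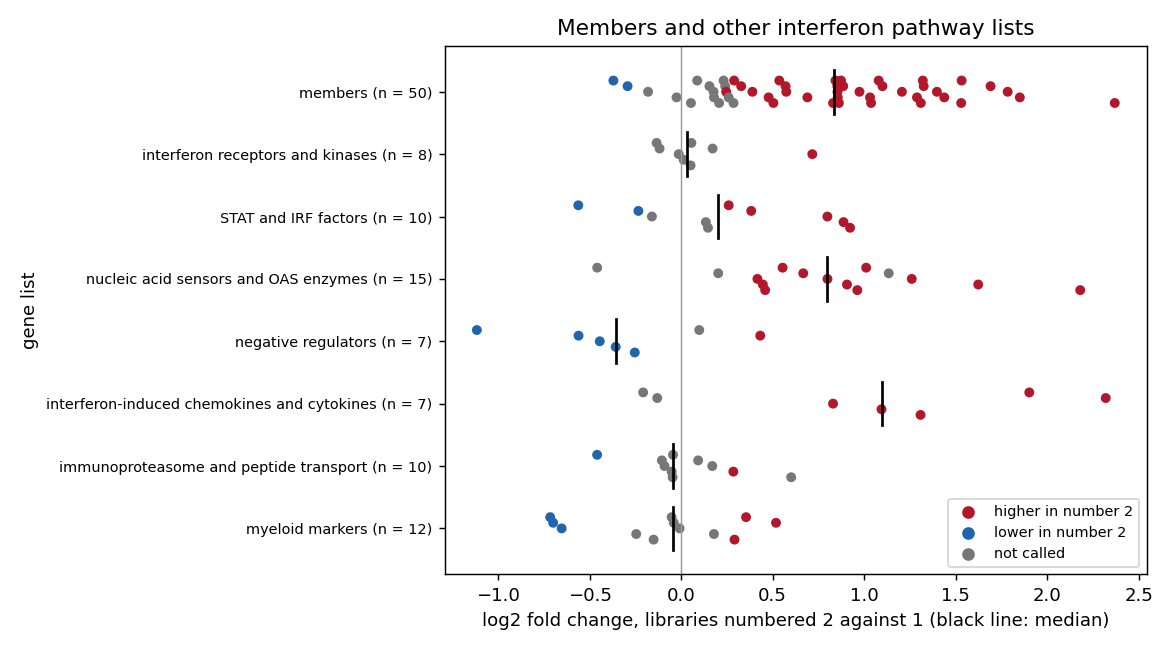
Each point is a tested gene, placed by its log2 fold change between the libraries numbered 2 and 1, in the 50 members, the pathway lists with tested genes and the myeloid markers; black lines are medians and colours give the call. The members (median 0.84), sensors (0.80) and chemokines (1.10) lie mostly to the right, while the negative regulators (-0.36) lie mostly to the left.

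Lists of cell type markers were read beside the members. All 12 myeloid markers were above 1 CPM in every library, with 3 higher (LYZ, CD33, CD68) and 3 lower (CD14, ITGAM, MPO) in number 2. These counts are near the shares over all genes, 22.8% called higher and 22.6% lower. Their summed levels were 3339 to 3698 CPM in number 1 and 3547 to 4028 CPM in number 2. Of the plasmacytoid dendritic cell markers CLEC4C and LILRA4 were at or below 0.19 CPM, with the list's sum at 36.8 to 45.9 CPM against 34.9 to 37.5 CPM from IL3RA and TCF4. CD3D and CD2 were at 0 throughout, and the T and NK list summed to 22.2 to 25.2 CPM against 18.7 to 22.9 CPM, mostly NKG7. In the B cell list PAX5 (1.17) and CD79B (0.99) of 3 tested were called higher. That list summed to 6.95 to 8.68 CPM against 11.3 to 13.5 CPM, with MS4A1 at most at 0.05 CPM. The 6 erythroid and megakaryocyte markers included 4 at 0 throughout, and the epithelial and fibroblast list summed to at most 2.04 CPM. The part of other cells in the members' values was not tested.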

How the data were processed

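Polyadenylated RNA of 6 THP1 libraries was quantified by the authors per transcript with kallisto 0.43.1 after CASAVA, on hg38, per the submitters' processing notes. The deposited tables give estimated counts and TPM values, which the authors scaled by transcript length and library. Strand use and other options: not given in the sources used here. Reads that fit similar transcripts are divided among them by estimation in kallisto.

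Estimated counts were summed per gene with GENCODE 29, which matched 163714 of 179973 transcripts (91.0%). The unmatched held 3.13% to 3.32% of counts and were left out. Sums were rounded and tested with edgeR 4.0.16 (R 4.3.3; TMM, filterByExpr, glmQLFit, glmQLFTest) on 14497 of 22272 genes, with a threshold of 0.05 on the adjusted p. Group comparisons had group as the only term, and the replicate number was tested with group as a second term. Standard errors were obtained by dividing the size of the log2 fold change by the root of the F statistic. CPM compares libraries and TPM compares genes.

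Replicate numbers come from the titles. Deviations from the group means of same-numbered libraries correlated at 0.60 to 0.73, so the numbers were treated as pairing the libraries. Same-numbered libraries differed by more than sampling noise (chi-square per gene 3.27 to 16.0), so none was counted as a duplicate. The biological coefficient of variation was 27.7% with group only and 10.6% with the block. The procedure was tested on simulated data.

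The members and lists were chosen with earlier results of these data known, so the difference between replicate numbers is a description of a pattern already seen. All 50 members were described by role; of other lists, up to 4 genes by smallest p were named, except where not reported here, and IFNAR1, IFNAR2 and some markers were named after their values were seen. Promoter windows were RefSeq entries of GRCh38.p14. The settings varied were the normalization (RLE), the tool (DESeq2 1.42.0, and limma-voom of limma 3.58.1), no filter, a filter of 1 CPM in at least 2 libraries, the replicate block, and leaving out each library. Leave-one-out fits, DESeq2 and limma-voom, each with the block, were added after the data were seen.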

Additional observations from a re-analysis of the deposited data

Results flagged for a closer look

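In 4 members the difference between ALKBH5 rescue and shCtrl ran in opposite directions in the replicate numbers by at least 0.3 log2 units each way, with 1 library against 1 in each number; the difference was not tested. In SAMD9 it was -0.80 in number 1 and 1.44 in number 2, a gap of 2.24. In SAMD9L the values were -0.59 and 0.62, a gap of 1.21. DDX60L gave -0.39 and 0.65, a gap of 1.04. HERC5 gave -0.41 and 0.42, a gap of 0.84. All 4 are among the 25 members with the longer transcripts. No group had the 4 libraries needed to test for a single library standing apart.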

How the results depend on the processing

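With 2 libraries per group, the comparisons by group had little power without the block, and single-library differences have no replicate check. Genes called numbered 0 in each group comparison in the main analysis. With the replicate block, shALKBH5 against shCtrl and ALKBH5 rescue against shCtrl called 1 gene each, and DESeq2 with the replicate block called 1 in the first. The block changed no call of a member. When each library was left out in turn, with and without the block, genes called ran from 0 to 420 for shALKBH5 against shCtrl, from 0 to 1005 for ALKBH5 rescue against shALKBH5 and from 0 to 764 for ALKBH5 rescue against shCtrl. Members called ran from 0 to 1, 0 to 5 and 0 to 5. The largest values came without a rescue library, where rescue was 1 library with no replicate.

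For replicate number 2 against 1, 36 members were higher in the main analysis, and 30 were called in every setting. RLE size factors, limma-voom and the 1 CPM filter kept the same 36. DESeq2 lost SAMD9 and SP100, and no filter added IFITM3. Fitting the number alone added GBP1, GBP2 and IFITM3. Leaving out a shCtrl library gave 35 members, losing BST2 and TRIM25 and adding GBP2. There were 31 without a shALKBH5 library, losing BST2, HELZ2, TRIM25, SP100 and TDRD7. Without a rescue library there were 41, adding IFITM1, IFITM2, IFITM3, RTP4 and IFI6. All genes called higher then ran from 2068 to 3447 and those called lower from 1843 to 3374. Members lower numbered 1 with DESeq2 or no filter (IFI27 lost) and 0 to 2 with a library left out, UBE2L6 and IFI27 both losing their calls without a shALKBH5 library. The members' median was 0.69 to 0.85 with a library left out, 0.68 within shCtrl alone, 0.71 within shALKBH5 alone and 0.78 within ALKBH5 rescue alone. Where a call changed, the cause was not tested. No result changed its direction past the threshold.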
